A study of Mus musculus with 12 samples.

Results

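Fat tissue takes up fatty acids through a short chain of proteins, and 10 genes of that chain were examined: Lpl, Gpihbp1, Cd36, Slc27a1, Slc27a2, Slc27a4, Acsl1, Fabp3, Fabp4 and Fabp5. They were taken by name from 27179 gene identifiers in the deposited counts, and all 10 were present. Polyadenylated RNA of adipose tissue came from C57BL/6J mice of wild-type genotype (WT) at day 7, with 3 libraries in each of 4 groups: Adult control (untreated adults), Adult burn, Aged control (untreated aged mice) and Aged burn. Burned mice were dipped in water at 98 °C. Contact of the back for 10 s burned 20% of the body surface at both ages, and adults had 2 s more on the belly, which brought their burn to 30%. The protocol names buprenorphine for pain relief; whether untreated mice received it is not stated in these sources, nor are the fat depot, the sex or the ages in weeks. Adult and aged libraries stand in separate tables, so age cannot be told apart from the table or, after burn, from burn size. The labels number the libraries without saying that each came from its own mouse, and p-values therefore measure the spread between these libraries, which may be technical.

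Lipoprotein lipase, encoded by Lpl, releases fatty acids from circulating triglyceride on the capillary wall, where the endothelial protein GPIHBP1 holds it. CD36 and the fatty acid transport proteins of the SLC27 family help fatty acids cross the cell membrane, and acyl-CoA synthetases such as ACSL1 trap them inside as acyl-CoA. Fatty acid binding proteins carry them through the cytoplasm: FABP4 is the major form of adipocytes, FABP5 is also made by macrophages and skin cells, and FABP3 is the form of heart, skeletal muscle and brown fat.

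Total counts ran from 25231506 to 32236330 in adult and from 31846557 to 46531070 in aged libraries. Levels are given as CPM, the usual depth-scaled count, after TMM scaling over the 12 libraries. Adipocyte genes were abundant everywhere, with a summed level of 10 markers (Adipoq first among them) between 5577 and 51376 CPM. Some libraries stood apart. Adult control 1 carried lymphocyte transcripts (9 B and T cell markers summed to 1397 CPM, against 9.61 and 13.3 in the other adult controls) and had the lowest adipocyte sum of its group, 19736 CPM. Adult burn 1 carried skeletal muscle transcripts (11 markers, 3254 CPM against 64.8 and 13.7). Aged burn 2 had the highest macrophage sum (10 markers, 14874 CPM) and neutrophil sum (9 markers, 1592 CPM) and the lowest adipocyte sum of the 12 libraries. In bulk tissue, fewer cells of a type and less RNA per cell cannot be told apart.

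**Figure D1:**
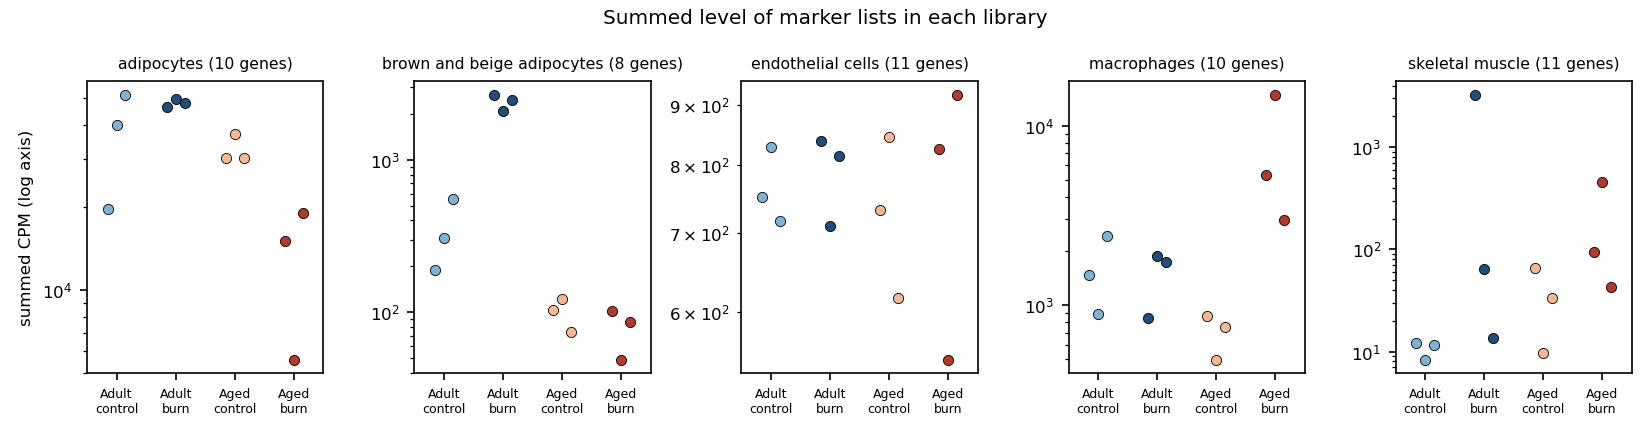
Summed CPM of 5 cell type marker lists in each library (log axis), 3 points per group. Brown and beige adipocyte genes lie between 2091 and 2675 CPM after burn in adults and at most 556 CPM elsewhere, and macrophage genes lie between 2972 and 14874 CPM after burn in aged mice.

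Fabp3 and Slc27a2 were the members with the largest fold changes after burn in adults, so the bases just before their start sites are shown (250 bases, RefSeq, GRCm38.p6, 5′ to 3′ on the gene's strand). Capitals mark the nuclear receptor hexamer AGGTCA, which on the opposite strand reads TGACCT.
Fabp3, chr4:130308488-130308737, + strand: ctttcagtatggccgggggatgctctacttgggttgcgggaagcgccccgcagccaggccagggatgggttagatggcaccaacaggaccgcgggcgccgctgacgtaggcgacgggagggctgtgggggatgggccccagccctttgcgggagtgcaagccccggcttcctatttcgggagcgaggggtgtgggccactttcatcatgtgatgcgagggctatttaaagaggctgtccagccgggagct
Slc27a2, chr2:126552774-126553023, + strand: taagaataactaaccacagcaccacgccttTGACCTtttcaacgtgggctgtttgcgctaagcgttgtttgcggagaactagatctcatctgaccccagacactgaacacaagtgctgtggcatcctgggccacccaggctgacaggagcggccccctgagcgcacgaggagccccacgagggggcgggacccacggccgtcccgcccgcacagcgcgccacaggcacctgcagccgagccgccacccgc
The Slc27a2 window held 1 such hexamer, 220 bases before the start, and the Fabp3 window held none. Both windows were rich in G and C, at 64.8% for Fabp3 and 64% for Slc27a2. The hexamer occurred on either strand in 14% of the 32851 promoters searched. The other motifs searched on both strands were the direct repeat of the hexamer with 1 base between (DR1, which contains the hexamer; 0.0335% of promoters), the C/EBP palindrome TTGCGCAA (0.164%) and the E-box CACGTG (6.02%), and neither window held any of them. RefSeq promoters were at hand for 6 of the 10 genes. Among the others of these, Cd36 had 1 hexamer 228 bases before a start, and Slc27a1 had 1 E-box 202 bases before 1 of its start sites. A match describes letters in a window, not a bound site.

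Per kilobase of exon, which allows levels of different genes to be compared, the chain was dominated by Fabp4. Its mean was 15901 CPM per kb in Adult control, 20034 in Adult burn, 18798 in Aged control and 9563 in Aged burn. Lpl came next (2537, 2976, 2271 and 1395 CPM per kb in the same order of groups), then Cd36 (758, 945, 1345 and 1007) and Acsl1 (578, 764, 628 and 293). This order of Fabp4, Lpl, Cd36 and Acsl1 held in each of the 12 libraries. Fabp5 stood above Acsl1 in Aged burn 2 (465 against 134 CPM per kb) and by the mean of Aged burn (300 against 293). The lower ranks moved: Fabp3, with 1.92, 99.4, 0.226 and 4.18 CPM per kb, stood above Slc27a4 and Gpihbp1 in the 3 Adult burn libraries and below both in the other 9. The 10 genes together held 30551 ± 13118 CPM in Adult control, 37781 ± 1894 in Adult burn, 34331 ± 1111 in Aged control and 19895 ± 7631 in Aged burn (SD, n = 3).

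**Figure D2:**
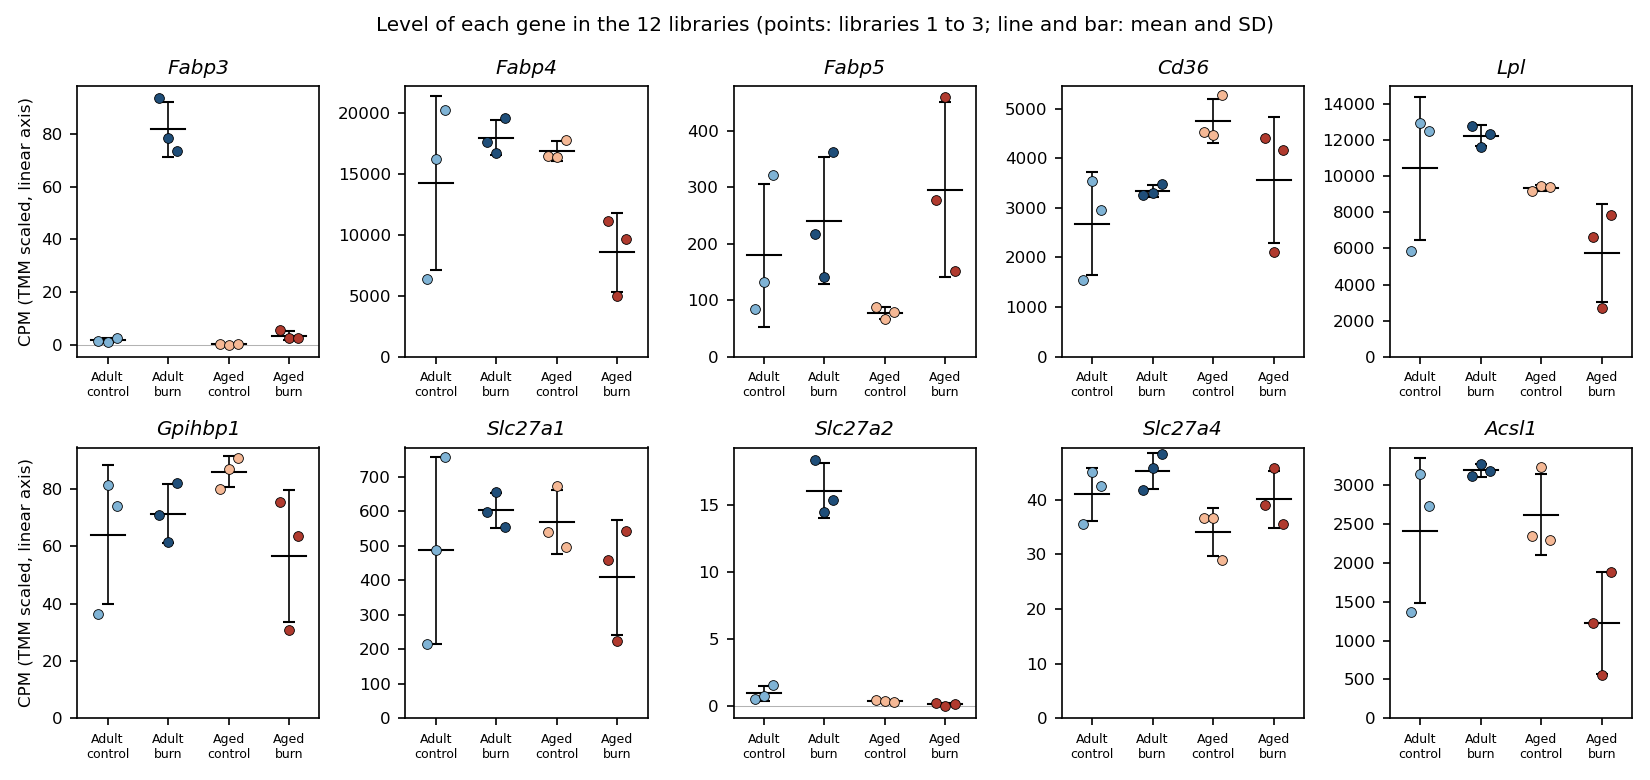
CPM of each gene in the 12 libraries (linear axes, a separate axis per gene); points are libraries, the line and bar are the mean and SD of 3. Fabp3 and Slc27a2 are high in the 3 Adult burn libraries, and Fabp5 is higher in the 3 Aged burn than in the 3 Aged control libraries.

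Lpl (Entrez 16956; chromosome 8, 68880555 to 68906932 of GRCm38, + strand) was at 5861, 12948 and 12511 CPM in Adult control 1 to 3 and at 12761, 11621 and 12355 CPM in Adult burn 1 to 3. In aged mice it was at 9166, 9468 and 9404 CPM in controls and at 6647, 2701 and 7869 CPM after burn. The lipase thus overlapped between the adult groups, and all 3 burned aged libraries lay below the aged controls. The log2 fold change of burn was 0.23 ± 0.53 (SE) in adults (edgeR adjusted p = 0.903) and -0.70 ± 0.52 in aged mice (edgeR adjusted p = 0.338). Groups ranked Adult burn, Adult control, Aged control and Aged burn by mean, and of neighbours only the last pair did not overlap. Gpihbp1 (68453; chromosome 15, 75596630 to 75598213, + strand), the capillary anchor of the lipase, was at 36.3, 81.5 and 74.1 CPM in adult controls and at 70.8, 61.4 and 81.9 CPM after burn. Aged controls had 80.1, 86.8 and 90.9 CPM and burned aged mice 75.3, 30.7 and 63.6 CPM. The aged groups did not overlap, but the log2 fold change of -0.60 ± 0.31 did not pass (edgeR adjusted p = 0.195). GPIHBP1 is made by endothelial cells, whose 11 markers summed to 825, 546 and 918 CPM in Aged burn 1, 2 and 3. In aged controls they summed to 732, 845 and 616 CPM. Of their fold changes 5 were positive and 6 negative, with 0 of 11 past the test. The part of endothelial cells in the Gpihbp1 values was not tested. Ordered by mean, Aged control, Adult burn, Adult control and Aged burn, all neighbours overlapped for Gpihbp1.

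Cd36 (12491; chromosome 5, 17781690 to 17888959, − strand), the main fatty acid translocase of adipocytes, was at 1538, 3550 and 2951 CPM in adult controls and at 3254, 3296 and 3472 CPM after burn. Aged controls had 4523, 4473 and 5267 CPM and burned aged mice 4404, 2109 and 4167 CPM. Cd36 was the single member higher in every aged control than in every adult control (log2 0.83 ± 0.37, edgeR adjusted p = 0.187). Of all genes with a count, 14% were likewise higher in every aged control, so such a gap is not particular to Cd36. Means of Cd36 ranked Aged control, Aged burn, Adult burn and Adult control, and only the first pair of neighbours did not overlap.

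Slc27a2 (26458; chromosome 2, 126553024 to 126588243, + strand) encodes FATP2, a very long-chain acyl-CoA synthetase and transporter best known from liver and kidney. It was at 0.492, 0.774 and 1.55 CPM in adult controls and at 18.4, 14.5 and 15.4 CPM after burn, on 19, 24, 40, 460, 341 and 362 reads. In aged mice it was at 0.432, 0.371 and 0.327 CPM in controls and at 0.252, 0 and 0.112 CPM after burn, on 15, 17, 15, 10, 0 and 4 reads. The 4 groups ranked Adult burn, Adult control, Aged control and Aged burn, and no neighbours overlapped. Over all genes with a count, 8.87%, 26.9% and 40.3% did not overlap in these pairs, in the same order. How many genes had no overlap in any of the pairs was not counted. The gap between the aged groups rests on the few reads given. Liver markers (6 genes) summed to 18.4 to 45 CPM in adult controls and 36.3 to 52.4 CPM after burn, and to 43.8 to 58.2 and 10.8 to 18.8 CPM in the aged groups. Nearly all of this was Alb, at 18.1 to 44.5 and 35.4 to 51.9 CPM in adults and 43.6 to 57.9 and 10.7 to 18.4 CPM in aged mice. Fgb was at 0 in each library. The part of liver markers in the Slc27a2 values was not tested. From pooled reads, burn over control was 18.6 (95% counting interval 14.9 to 23.5) in adults and 0.331 (0.168 to 0.611) in aged mice; these intervals cover counting error only. The library at 0 allows up to 0.0781 CPM (3 reads).

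Slc27a1 (26457; chromosome 8, 71568728 to 71587307, + strand), FATP1 of muscle and fat, was at 216, 488 and 757 CPM in adult controls and at 598, 656 and 554 CPM after burn. Aged controls had 540, 674 and 496 CPM and burned aged mice 460, 223 and 544 CPM. Both pairs of groups overlapped (log2 0.30 ± 0.43 in adults and -0.48 ± 0.35 in aged mice, edgeR adjusted p = 0.847 and 0.33). Slc27a4 (26569; chromosome 2, 29802634 to 29817522, + strand), the broadly expressed FATP4, varied little: its 12 values ran from 28.9 to 48.3 CPM. Its log2 fold change of burn was 0.14 ± 0.14 in adults and 0.24 ± 0.16 in aged mice (edgeR adjusted p = 0.807 and 0.291). Neighbours in the order of group means overlapped for both transporters.

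Acsl1 (14081; chromosome 8, 46471037 to 46536051, + strand), the main long-chain acyl-CoA synthetase of adipocytes, was at 1361, 3145 and 2724 CPM in adult controls and at 3113, 3275 and 3174 CPM after burn. Aged controls had 2338, 3227 and 2294 CPM and burned aged mice 1231, 560 and 1875 CPM, all below the controls. The pooled ratio of burn over control in aged mice was 0.456 (0.454 to 0.459, counting error only), while the log2 fold change of -1.10 ± 0.47 did not pass (edgeR adjusted p = 0.137). Acsl1 passed with DESeq2 (-1.11, adjusted p = 0.0397) and without Aged burn 3 (-1.55, edgeR adjusted p = 0.0438), within a range of adjusted p from 0.0397 to 0.311 over 14 alternatives.

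Fabp4 (11770; chromosome 3, 10204342 to 10208616, − strand) was at 6370, 16184 and 20189 CPM in adult controls and at 17555, 16728 and 19568 CPM after burn. In aged mice it was at 16434, 16327 and 17767 CPM in controls and at 11120, 4951 and 9634 CPM after burn, with no overlap (log2 -0.97 ± 0.54, edgeR adjusted p = 0.218). Fabp5 (16592; chromosome 3, 10012585 to 10016610, + strand), on the same chromosome, went the other way in aged mice: 88.3, 66.8 and 79.2 CPM in controls and 278, 459 and 151 CPM after burn. Adult controls had 84.1, 132 and 322 CPM of Fabp5 and burned adults 217, 142 and 363 CPM, which overlapped. Of the reads on Fabp3, Fabp4 and Fabp5, the share of Fabp5 was 0.462% ± 0.0649 in Aged control and 4.16% ± 3.77 in Aged burn (SD, n = 3), with 2.44%, 8.48% (95% Wilson interval 8.36% to 8.6%) and 1.55% in Aged burn 1, 2 and 3. In adults that share was 1.23% ± 0.384 in controls and 1.29% ± 0.491 after burn.

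Fabp3 (14077; chromosome 4, 130308738 to 130315463, + strand) was at 1.37, 0.903 and 2.47 CPM in adult controls and at 93.6, 78.4 and 73.4 CPM after burn, on 53, 28, 64, 2340, 1844 and 1724 reads. In aged mice it was at 0.23, 0.0437 and 0.284 CPM in controls and at 5.38, 2.6 and 2.35 CPM after burn, on 8, 2, 13, 213, 100 and 84 reads. Burned libraries lay above controls at both ages. Groups ranked Adult burn, Aged burn, Adult control and Aged control, and only Aged burn and Adult control overlapped. Pooled reads gave a ratio of 54 (45.8 to 64.2) in adults and 19.2 (12.6 to 30.6) in aged mice, intervals of counting error only. The end of Fabp3 overlaps Zcchc17 on the annotation, a gene at 814 to 1653 reads in the 12 libraries, and the counting's strand setting is unknown here.

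After burn in adult mice, 1 of the 10 genes passed the test. Mean Fabp3 rose from 1.58 ± 0.806 to 81.8 ± 10.5 CPM (± SD over 3 libraries), a log2 fold change of 5.69 with an SE of 0.41 (edgeR adjusted p = 0.018). Of the 14600 genes tested, 0.0411% passed, all 6 of them upward. Slc27a2 went from 0.937 ± 0.546 to 16.1 ± 2.04 CPM and did not pass (log2 4.11 ± 0.45, edgeR adjusted p = 0.0812), but it passed with DESeq2 (adjusted p = 3.89e-18), with limma-voom (adjusted p = 0.0334) and without Adult control 3 (edgeR adjusted p = 0.0438), in a range up to 0.484 over 15 alternatives. The other 8 had fold changes from 0.14 (Slc27a4) to 0.41 (Fabp5) on the log2 scale with overlapping libraries. By library values 2 members were all higher and 0 all lower, where 8.87% of all genes with a count did not overlap (5.53% higher and 3.34% lower). The median of the 10 was 0.32 and that of all genes tested -0.04, and all 10 were positive, although Gpihbp1 and Slc27a4 were at -0.011 and -0.056 when scaled by library size alone, a scaling that moved the median of all genes to -0.24. Without Adult control 1, which was lowest in its group for 9 of the members, Fabp4, Lpl, Gpihbp1 and Slc27a1 were at -0.036, -0.073, -0.142 and -0.064.

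The size of the Fabp3 difference held under each alternative run (log2 5.42 to 6.15), whereas its call did not. It passed in 8 of 15 alternatives (adjusted p from 2.52e-49 to 0.187) and was lost without Adult control 1 (edgeR adjusted p = 0.0755), Adult control 2 (0.0918), Adult burn 1 (0.103), Adult burn 2 (0.13) or Adult burn 3 (0.145), and without Adult control 1 and Adult burn 1 together (0.187). The 11 skeletal muscle markers summed to 3254, 64.8 and 13.7 CPM in Adult burn 1, 2 and 3, whose Fabp3 values were 93.6, 78.4 and 73.4 CPM, and without Adult burn 1 the Fabp3 difference was 5.59. The 5 heart markers summed to 1.39 to 6.06 CPM in adult controls and 1.19 to 4.84 CPM after burn, with Tnni3 detected in all 12 libraries and Myh6 and Nppa at 0 in each. The 8 brown and beige adipocyte markers summed to 190, 307 and 556 CPM in adult controls and to 2675, 2091 and 2455 CPM after burn, with 2 of 8 past the test, Ucp1 among them (15.7 to 1083 CPM). The part of muscle, heart and brown or beige markers in the Fabp3 and Slc27a2 values was not tested.

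**Figure D3:**
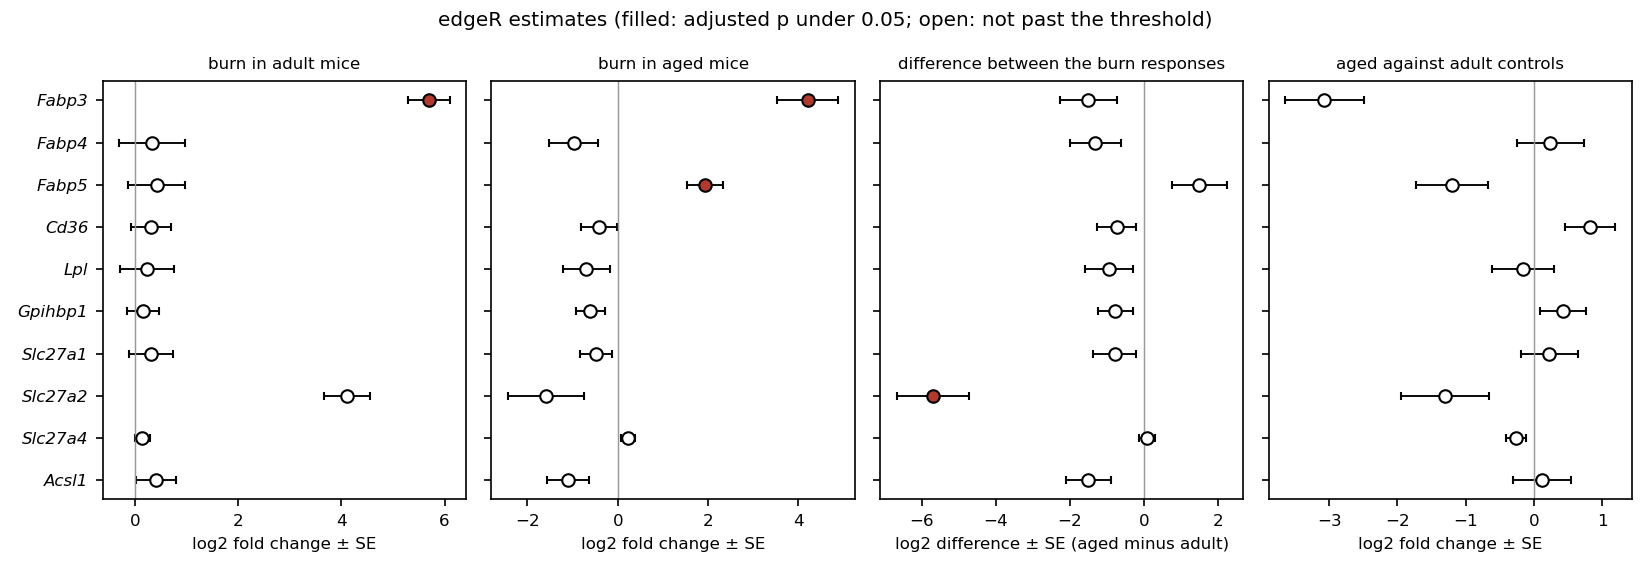
Log2 differences with SE (edgeR) for the 10 genes in 4 comparisons; filled points have an adjusted p under 0.05, and each panel has its own axis. Fabp3 passed after burn at both ages (5.69 and 4.20), Fabp5 in aged mice (1.93) and Slc27a2 in the difference between the responses (-5.70). In aged mice Fabp3 passed the filter on low counts through the burned libraries.

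After burn in aged mice, 2 binding proteins rose. Fabp3 went from 0.186 ± 0.126 to 3.44 ± 1.68 CPM (log2 4.20 ± 0.68, edgeR adjusted p = 0.0125), and Fabp5 from 78.1 ± 10.8 to 296 ± 155 CPM (log2 1.93 ± 0.40, edgeR adjusted p = 0.026). The test called 16.7% of 15132 genes, 2075 up (13.7%) and 459 down (3.03%; 2718 up and 183 down when scaled by library size alone), and 0 of the 10 members fell. The 7 negative members ran from -0.42 (Cd36) to -1.59 (Slc27a2), and Aged burn 2 was the lowest burned library for each of them. Without it they lay between -0.15 (Cd36) and -1.01 (Slc27a2), with Lpl at -0.36, Gpihbp1 at -0.31 and Slc27a1 at -0.18; without Aged burn 1 Slc27a2 was at -2.71, and without Aged burn 3 Slc27a1 was at -0.74. With all libraries the median of the 10 was -0.54 against -0.01 over all genes. By library values, Fabp3 and Fabp5 were higher in all 3 burned libraries and 6 members lower in all 3 (Fabp4, Cd36, Lpl, Gpihbp1, Slc27a2 and Acsl1). Over all genes with a count, 40.3% did not overlap in 1 direction or the other, 21.4% higher and 18.9% lower. Fabp3 was over the minimum of the filter on low counts in 3 burned libraries and 1 aged control. It passed the filter through the burned libraries, so its call is a description. Slc27a2 passed the filter through the controls.

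The 11 skeletal muscle markers summed to 94.9, 456 and 42.5 CPM in Aged burn 1, 2 and 3 and to 65.4, 9.67 and 33.6 CPM in the controls, with 1 of 10 tested up (Mylpf, log2 3.79, edgeR adjusted p = 0.0446), and the 5 heart markers to 1.57 to 2.34 and 0.979 to 1.35 CPM. Their part in the aged Fabp3 values was not tested. Fabp3 lost its call in aged mice without Aged control 1 (edgeR adjusted p = 0.0631) or Aged control 3 (0.0622), and passed in the other 12 of 14 alternatives (log2 3.69 to 4.67, adjusted p from 7.33e-09). Fabp5 passed in 9 of 14 (adjusted p from 6.41e-05 to 0.119) and was lost without Aged control 1, 2 or 3 (edgeR adjusted p = 0.0971, 0.119 and 0.111) or Aged burn 1 (0.071). Without Aged burn 2 its log2 fold change was 1.46 (edgeR adjusted p = 0.00839). The 10 macrophage markers summed to 5299, 14874 and 2972 CPM in Aged burn 1, 2 and 3 and to 866, 492 and 750 CPM in the controls, with 8 of 10 up, while Fabp5 stood at 278, 459 and 151 CPM in the same burned libraries. Skin keratinocytes also make Fabp5, and their 7 markers summed to 2.85 to 3.96 CPM after burn and 5.59 to 6.92 CPM in aged controls. Krt5, Krt1 and Krt15 were at 0 in both groups. Krt10 (111, 133 and 163 reads in controls, 76, 93 and 79 after burn) and Trp63 (81, 111 and 130, then 29, 59 and 51) were detected in every aged library. The part of macrophages or keratinocytes in the Fabp5 values was not tested. Brown and beige markers summed to 102, 48.5 and 85.8 CPM in burned aged mice and to 104, 122 and 74.5 CPM in aged controls. Of the 8 markers 7 were tested, with 3 up and 3 down. Ucp1 was at 0.276 ± 0.248 CPM in aged controls and 16.8 ± 12.1 CPM after burn. DESeq2 also called Fabp4 (log2 -0.98, adjusted p = 0.0113), whose adjusted p reached 0.395 over 14 alternatives.

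The 10 adipocyte markers summed to 15064, 5577 and 19126 CPM in burned aged mice and to 30287, 37120 and 30342 CPM in aged controls. Their 10 fold changes were all negative (median log2 -1.36), with 1 past the test. Each member was therefore also set against them, as log2(CPM + 1) of the member minus the mean of the 10 markers. The mean of the 10 markers was itself 11.13 in aged controls and 9.65 after burn on that log2 scale. On this relative scale 8 of the 10 members were higher in every burned aged library than in every aged control. Over the 15132 genes tested 91% did not overlap, 90.9% higher and 0.145% lower, so the count is not particular to the members. The 8 were Fabp3 by 3.33, Fabp5 by 3.26, Slc27a4 by 1.71, Slc27a2 by 1.18, Cd36 by 0.99, Slc27a1 by 0.92, Gpihbp1 by 0.79 and Lpl by 0.64. Fabp4 (0.42) and Acsl1 (0.23) overlapped. In adults, Fabp3 (4.70), Slc27a2 (2.83) and Acsl1 (0.15) were higher without overlap, where 5.91% of all genes tested did not overlap (1.14% higher and 4.77% lower), and the other 7 lay between -0.19 and 0.20. With 3 libraries against 3 the exact two-sided permutation p cannot go below 0.1 (adjusted 0.182 over the 20 tests), so 0 of the 20 could pass. The sign for Slc27a2 in aged mice differed between the scales, and with a pseudocount of 0.1 its relative difference was 0.20.

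**Figure D4:**
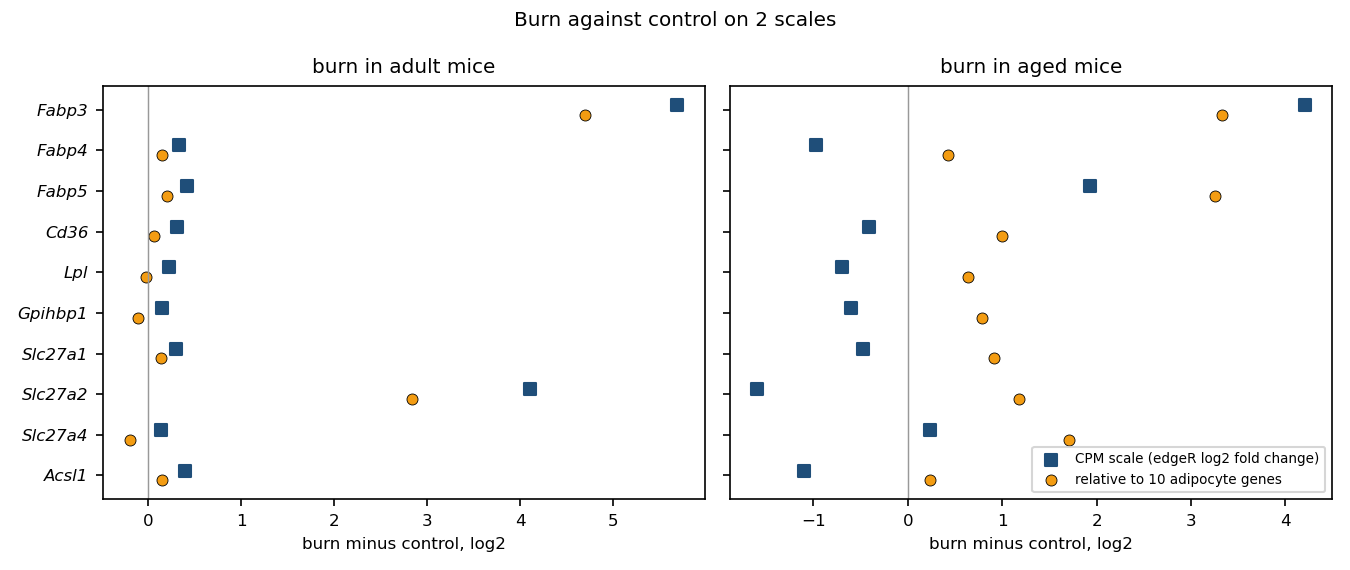
Burn minus control for each gene, on the log2 scale: squares on the CPM scale (edgeR), circles relative to 10 adipocyte genes; each panel has its own axis. In aged mice Cd36, Lpl, Gpihbp1, Slc27a1, Slc27a2, Fabp4 and Acsl1 lie below 0 on the CPM scale and above 0 relative to the adipocyte genes, a scale on which 90.9% of all genes tested were higher in every burned aged library.

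In the test of the difference between the burn responses, 1 of the 10 genes passed, beside 11.9% of all genes. Not passing does not show that the other 9 responded alike at both ages. The 1 that passed was Slc27a2. Its responses of 4.11 in adults and -1.59 in aged mice differed by -5.70 ± 0.97 (aged minus adult) on the log2 scale (edgeR adjusted p = 0.017). Of 15553 genes, 11.9% passed, 1500 up (9.64%) and 345 down (2.22%; 2675 up and 169 down when scaled by library size alone, which moved the median of all genes from 0.05 to 0.37). Slc27a2 passed in 14 of 20 alternatives (-6.82 to -5.13) and was lost without Adult burn 1 (edgeR adjusted p = 0.056), Adult burn 2 (0.0534), Aged control 2 (0.0616), Aged control 3 (0.054), or Adult control 1 and Adult burn 1 together (0.0629). It stayed within an adjusted p of 7.94e-10 to 0.0639 over all 20. Fabp3, at -1.50 ± 0.76, did not pass (edgeR adjusted p = 0.186). Fabp5 passed after burn in aged mice and not in adults, but the difference itself, 1.50 ± 0.74, did not pass (edgeR adjusted p = 0.175). Acsl1 (-1.50 ± 0.61, edgeR adjusted p = 0.114) passed with DESeq2 (adjusted p = 0.0325) and without Aged burn 3 (edgeR adjusted p = 0.0387), in a range up to 0.29. The other members were at -1.31 (Fabp4), -0.93 (Lpl), -0.79 (Slc27a1), -0.76 (Gpihbp1), -0.74 (Cd36) and 0.09 (Slc27a4), and the median of the 10 was -0.86 against 0.05 over all genes. Adult and aged animals also differed in table and burn size, which cannot be told apart from age here. Set side by side without a test, burned aged libraries lay below all burned adult ones for 6 members (Fabp3, Fabp4, Lpl, Slc27a1, Slc27a2 and Acsl1) and above them for 0. Over all genes with a count, 38.7% did not overlap in this way, 21.9% higher and 16.9% lower.

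Among untreated mice 0 of the 10 members passed between aged and adult fat in edgeR, where 0.424% of 15553 genes did (0.238% higher and 0.186% lower). At an unadjusted p under 0.05 there were 3 members, with 26.3% of all genes, and DESeq2 called 1. That 1 was Fabp3, lower in every aged control than in every adult control (log2 -3.07 ± 0.58, edgeR adjusted p = 0.0528), with DESeq2 adjusted p = 9.19e-06. It also passed without Adult control 2 (edgeR adjusted p = 0.025) or Aged burn 2 (0.0299), and its adjusted p reached 0.213 over 21 alternatives. Slc27a2 was likewise lower in every aged control (-1.30 ± 0.65, edgeR adjusted p = 0.225), and Fabp5 was at -1.20 ± 0.53 (0.18) with overlap. By library values 1 member was all higher and 2 all lower, where 26.9% of all genes did not overlap (14% higher and 12.9% lower). The 1 all higher was Cd36 (0.83, given above), and the remaining 6 fold changes lay between -0.27 (Slc27a4) and 0.43 (Gpihbp1). Ucp1 was lower in aged controls (log2 -5.74, edgeR adjusted p = 0.0245), and the brown and beige markers summed to 74.5 to 122 CPM there against 190 to 556 CPM in adult controls.

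The wider pathway was followed in 9 lists of 89 genes. After burn in adults 0 of 73 tested genes passed in edgeR, with 55 positive and 18 negative fold changes (median log2 0.18). The 13 transcriptional regulators of uptake were all positive (median 0.29, beside -0.04 over all genes tested). Adult control 1 was the lowest adult control for each of them but Ppard. By mean CPM over all 12 libraries, which is not corrected for gene length, the highest gene of each list was Hspg2, encoding the heparan sulfate proteoglycan perlecan (log2 -0.17), the lipoprotein receptor Lrp1 (-0.06), the caveolin Cav1 (0.11), the retinol binding protein Rbp7 (0.19), the transporter Slc27a3 (-0.34), the acetyl-CoA synthetase Acss2 (0.50), the acyl-CoA binding protein Dbi (0.30), the adipocyte factor Cebpa (0.30) and the lactate receptor Hcar1 (0.38), each with edgeR adjusted p of 0.788 or more.

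In aged mice 12 of 75 rose and 4 fell, beside 13.7% up and 3.03% down over all genes, with a median of -0.28. Of the 12, Fabp7 and Crabp1 passed the filter on low counts through the burned libraries alone and had to be high there, so the count is a description. Acot1 was over the filter's minimum in 3 burned libraries and 1 aged control, so it too passed through the burned libraries. In the lipase list 3 of 14 rose, among them Sdc1, encoding the heparan sulfate proteoglycan syndecan-1 (9.97 ± 1.59 to 90.3 ± 41.8 CPM, log2 3.18, edgeR adjusted p = 0.00737). The others were Apoc2, the activator of lipoprotein lipase at 4.87, 18.9 and 3.52 CPM in Aged burn 1, 2 and 3 (log2 3.27, and 2.15 without Aged burn 2), and Furin, a protease (0.76), while Pcsk6, named after its values were seen, fell by 1.58 on the log2 scale. Of 6 lipoprotein receptor genes 2 rose, Lrp8 (log2 4.18) and the HDL receptor Scarb1 (0.83). Of 11 genes of caveolae and membrane uptake, 9 were negative and 1 passed, the caveolar coat gene Cavin3 (320 to 161 CPM). Of 6 other binding proteins the 2 called were those near 0 in aged controls. Fabp7, the brain form, had 2, 6 and 2 reads in the controls and 232, 219 and 34 after burn (5.86, 5.7 and 0.95 CPM), a pooled ratio of 53.9 (29 to 113, counting error only). Crabp1, a retinoic acid binder, had 1 read in each control and 127, 4153 and 80 reads (3.21, 108 and 2.23 CPM) in Aged burn 1, 2 and 3.

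Further along the chain in aged mice, the acyl-CoA synthetases Acsbg1 (log2 1.62) and Acsl4 (0.95, and 0.63 without Aged burn 2) rose, 2 of 9. The thioesterases Acot1 (3.21), Acot11 (2.06) and Acot7 (0.84) rose, and Dbi, which binds acyl-CoA and was named after its values were seen, went from 1542 ± 57.7 to 716 ± 145 CPM (edgeR adjusted p = 0.0304). Of 13 transcriptional regulators 11 were negative (median -0.97), and Ppargc1a, a coactivator of mitochondrial genes, fell by 1.78. The 1 other SLC27 transporter tested, Slc27a3, was at 0.82 and the 4 receptors and effectors at a median of -0.68, Hcar1 at -0.40, with 0 past the test. Of the 14 called genes named by rule, 14 lost the call without Aged control 3, when 0 of 15494 genes passed (4227 had an unadjusted p under 0.05), 11 without Aged control 1 and 11 without Aged control 2. Without Aged burn 1, 8 were lost, and 1 (Acsbg1) without Aged burn 2. These libraries also differed in the macrophage and adipocyte sums given above, whose part in the pathway values was not tested.

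**Figure D5:**
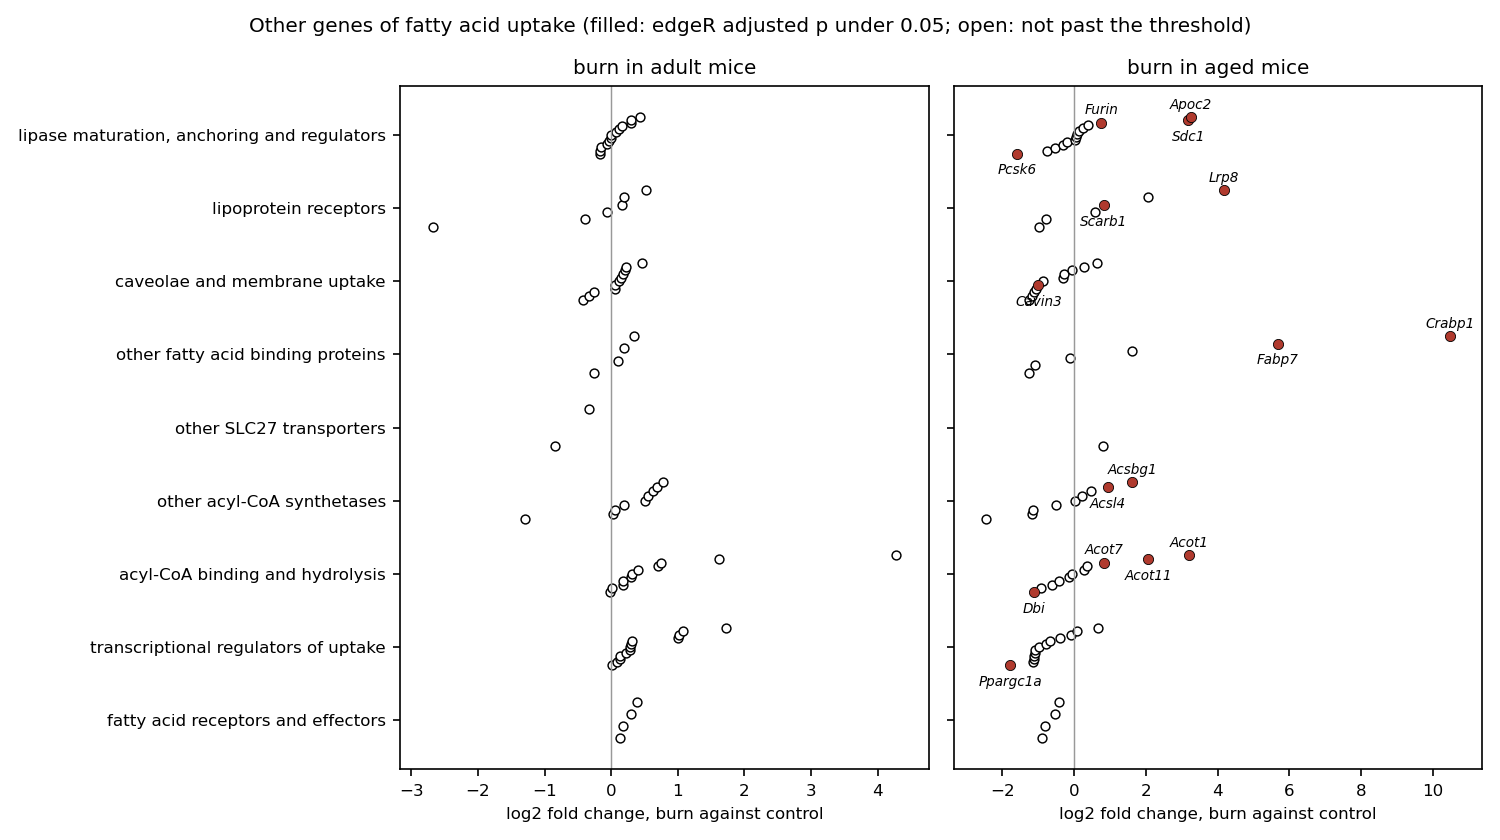
Log2 fold changes of burn for the tested genes of the 9 pathway lists (73 in adult, 75 in aged mice; separate axes); filled and named points have an edgeR adjusted p under 0.05. In adults 0 passed; in aged mice 12 of the filled points lie above 0 and 4 below.

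The responses differed between the ages for 10 of 77 pathway genes, 4 toward higher and 6 toward lower values in aged mice, beside 11.9% of all genes (9.64% and 2.22%). Ppara, the nuclear receptor that drives fatty acid oxidation, was at 35.7 ± 10 and 118 ± 19.8 CPM in adult control and burn and at 30.8 ± 12.8 and 13.9 ± 8.13 CPM in aged control and burn (difference -2.88, edgeR adjusted p = 0.0233). The coactivators Ppargc1a (-2.81) and Ppargc1b (-1.87), the synthetase Acsf2 (-1.19) and the thioesterases Acot11 (-2.22) and Acot2 (-1.32) were the other 5 lower ones. The higher ones were Sdc1 (3.17), Lrp8 (6.84), Acot7 (0.82) and Fabp7, whose aged controls held the 2, 6 and 2 reads given above. Lrp8 stood at 10.6 CPM in Adult control 1 and at most 1.02 CPM in the other adult libraries, and its difference was 4.48 without that library. All 10 lost the call without Adult burn 1, Adult burn 2, Aged control 2 or Aged control 3, when 0 genes of all passed in edgeR (4273, 4561, 4353 and 4489 had an unadjusted p under 0.05), and 8, 6, 4, 4 and 2 lost it without Aged control 1, Aged burn 1, Adult control 1, Adult burn 3 or Aged burn 2. Acot7 with Ppargc1b, and Acot7 with Acot2, lost it without Adult control 2 and Adult control 3. Of lists without a call, Cav1 was at -1.24, Slc27a3 at 1.14 and Hcar1 at -0.79. Between untreated groups 0 of 77 passed in edgeR. There Acss2 was at 340 ± 148 CPM in adult and 68.4 ± 21.8 CPM in aged controls (log2 -2.31, edgeR adjusted p = 0.0697), and Slc27a3 was at -1.09, Cav1 at 0.93, Hspg2 at 0.67, Cebpa at 0.38, Lrp1 at 0.37, Rbp7 at 0.34, Hcar1 at -0.07 and Dbi at -0.02.

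Over the 12 libraries, the profile of Fabp3 was most like those of Cox7a1 (Pearson r of log2(CPM + 1) 0.982), Acot11 (0.982) and Ucp1 (0.975), out of 10872 genes with a mean of at least 5 CPM. Slc27a2 was most like Letmd1 (0.975), Elovl3 (0.972) and Pank1 (0.966). For Elovl3, a fatty acid elongase, the group means were 2.48, 46.8, 0.0241 and 0.576 CPM in Adult control, Adult burn, Aged control and Aged burn. The abundant members had other partners, such as Dpm1 (0.992) for Fabp4, Abcb6 (0.986) for Lpl, Meis2 (0.988) for Acsl1 and Tdrkh (0.977) for Cd36. Fabp5 was most like Prune2 (0.965), Gpihbp1 like Rtn3 (0.969), Slc27a1 like Acad11 (0.949) and Slc27a4 like Spef1 (0.935). These values describe 12 libraries that share group, depth and composition.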

How the data were processed

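Adipose polyadenylated RNA of 12 libraries (3 per group) was extracted with Trizol and prepared with a directional kit, per the labels' protocols. Per the submitters' processing notes, the tools were cutadapt, HISAT2 and featureCounts, with FastQC and MultiQC, on mm10; versions, annotation and strand setting: not given in the sources used here. Raw counts per Entrez gene, in 1 table per age, are the values the authors deposited. Of 27179 identifiers, 25275 matched a symbol. No pair of libraries in a group agreed within sampling noise (chi-square per degree of freedom at least 31.3).

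The test was that of edgeR 4.0.16 under R 4.3.3 (filterByExpr, minimum count 10; TMM; quasi-likelihood F test; Benjamini-Hochberg over all genes; threshold 0.05), on 6 libraries within an age and on 12 for the difference and for controls. SE is the absolute log2 fold change over the square root of F. Exon lengths and strands came from GENCODE vM21 (GRCm38), and gene coordinates and promoters from RefSeq. Named genes were the 10 members, per pathway list up to 3 called genes by adjusted p, or the most abundant where none was called, the first gene of a marker list where useful, and the 3 genes most like each member (some are left out of the text, and some results are not reported here). Members and lists were chosen with earlier results of these data known. Alternatives were other scalings, no filter, DESeq2 1.42.0, limma-voom (limma 3.58.1), other sets of libraries, a replicate block and each library left out. The fits were tested on simulated data.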

Additional observations from a re-analysis of the deposited data

Results flagged for a closer look

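The burn response of Slc27a2 differed between the ages by the test of the difference itself: -5.70 on the log2 scale (aged minus adult, edgeR adjusted p = 0.017). It was at 18.4, 14.5 and 15.4 CPM in burned adults and at 0.252, 0 and 0.112 CPM in burned aged mice, on 10, 0 and 4 reads in the latter. Age, table and burn size cannot be told apart in it.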

How the results depend on the processing

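Counts of members past the test moved with single choices. For burn in adults the count was 1, with 2 by DESeq2 and by limma-voom, 0 with the replicate block, 0 without Adult control 1 and Adult burn 1, and 0 to 2 leaving out 1 library. For burn in aged mice it was 2, with 4 by DESeq2, 1 with the replicate block and 0 to 3 leaving out 1 library. For the difference between the responses it was 1, with 2 by DESeq2, 0 with the replicate block within age, 0 without Adult control 1 and Adult burn 1, and 0 to 2 leaving out 1 library. Between controls it was 0, with 1 by DESeq2 and 0 to 1 leaving out 1 library. Over all genes, edgeR, DESeq2 and the replicate block called 6, 62 and 0 for burn in adults, 2534, 5011 and 917 in aged mice, 1845, 3783 and 0 for the difference, and 66, 2184 and 0 between controls (0 with the 6 control libraries alone, of which 3599 had an unadjusted p under 0.05). Leaving out 1 library gave 0 to 5, 0 to 5743, 0 to 4039 and 0 to 2011 calls in the same order. Limma-voom called 833 for the difference, and 12 libraries in the fit gave 14 for burn in adults. The cause was not tested.

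The labels do not say that the replicate numbers pair the libraries. Same-numbered control and burn libraries had correlations of their deviations of 0.0154, -0.00159 and 0.234 in adults and -0.117, -0.211 and -0.0658 in aged mice. Not every library correlated best with its own number, but 3 libraries per group are too few for these correlations to exclude a pairing. With the block, Fabp3 in adults had edgeR adjusted p = 0.131, Fabp5 in aged mice 0.0764 and the Slc27a2 difference 0.0639, and no other member's call changed.

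Signs changed only for members and pathway genes with small fold changes that did not pass the test. For burn in adults, scaling by library size alone gave -0.011 for Gpihbp1, -0.056 for Slc27a4 and -0.073 for Cav1. Without Adult control 1 and Adult burn 1 the values were -0.006 for Fabp4, -0.089 for Lpl, -0.121 for Gpihbp1, -0.046 for Slc27a1, -0.207 for Cav1, -0.283 for Rbp7, -0.067 for Dbi and -0.099 for Hcar1. Between controls, without the same 2 libraries, they were -0.111 for Fabp4, -0.127 for Slc27a1, -0.163 for Acsl1 and -0.069 for Rbp7, and limma-voom gave 0.053 for Dbi. Leaving out 1 library gave, for burn in adults, -0.036 to 0.67 for Fabp4, -0.073 to 0.407 for Lpl, -0.142 to 0.365 for Gpihbp1, -0.064 to 0.775 for Slc27a1, -0.003 to 1.15 for Fabp5, -0.102 to 0.572 for Cav1, -0.231 to 0.479 for Rbp7, -0.014 to 0.495 for Dbi, -0.395 to 0.25 for Hspg2 and -0.215 to 0.194 for Lrp1. For the Slc27a4 difference it gave -0.022 to 0.19. Between controls it gave -0.122 to 0.58 for Fabp4, -0.138 to 0.698 for Slc27a1, -0.174 to 0.364 for Acsl1, -0.079 to 0.625 for Rbp7, -0.456 to 0.029 for Lpl, -0.333 to 0.172 for Dbi and -0.387 to 0.24 for Hcar1. Relative to adipocyte genes in adults it gave -0.009 to 0.368 for Fabp4, -0.012 to 0.436 for Slc27a1, -0.35 to 0.053 for Slc27a4, -0.209 to 0.623 for Fabp5, -0.092 to 0.048 for Lpl, -0.276 to 0.025 for Gpihbp1 and -0.027 to 0.118 for Cd36, and 3 adipocyte genes as the reference gave 0.036 for Lpl. In aged mice 0 of the members' fold changes changed sign under the alternatives run. Few reads limit Slc27a2 and Fabp3 in aged mice.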
